A study of Mus musculus with 12 samples.

Results

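The transcripts described here are the RNAs of 9 genes whose introns carry small RNAs. Of these, 8 are host genes of small nucleolar RNAs (snoRNAs): Gas5, Snhg1, Snhg5, Snhg6, Snhg15, Snhg8, Snhg12 and Snhg3. The other is Mir142hg, the host gene of the microRNA miR-142. The members were chosen by name, as the row of the deposited table whose gene name equals the symbol and that holds an annotated Ensembl transcript, and were to be selected on the highest mean level where several rows qualified. That mean level is the only measured value in the rule, and it decided nothing, because no member had more than 1 such row. The list of names itself was drawn up with earlier results of these data known. Such a row existed for 7 of the 9 listed genes, out of 24394 annotated gene symbols. Snhg12 was present only in a row merged with its own snoRNA Snora16a, and Snhg3 only in a row merged with its neighbour Rcc1, so these merged rows are given beside the 7 members and are not counted among them. All 7 members and both merged rows were among the 12777 genes that reached 1 FPKM in 3 or more libraries. FPKM are fragments per kilobase of transcript, normalised to the mapped fragments of the library. Mir142hg reached 1 FPKM in 6 of 6 DNBS libraries and 0 of 6 saline libraries, so it could pass only through the group where it was high.

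RNA bound to tagged ribosomes was sequenced from the myenteric plexus of the mouse distal colon, in 4 groups of 3 libraries. All mice were C57BL/6 of the genotype Sox10::CreERT2+/- / Rpl22tm1.1Psam/J, in which tamoxifen chow (400 mg/kg for 2 weeks, then plain chow for 1 week) lets a Cre recombinase driven by Sox10 switch on an HA-tagged ribosomal protein Rpl22, so the tag marks cells in which Sox10 is active. In the gut these are enteric glia, which surround and support the neurons of the plexus. An enema of 0.1 ml held 5 mg of DNBS, a hapten that causes colitis, in 50% ethanol, or saline alone, and tissue was taken 48 hours later. Daily injections over 3 days, begun 24 hours before the enema, held 0.5 mg/kg of GR159897, which blocks the NK2 tachykinin receptor, in 0.1% DMSO, or 0.1% DMSO alone. The groups are thus DNBS_GR159897 (DNBS and antagonist), DNBS_Vehicle (DNBS and DMSO), Saline_GR159897 (saline and antagonist) and Saline_Vehicle (saline and DMSO). The saline enema is listed with no ethanol in it, and the effects of DNBS and of ethanol cannot be told apart. Of the 3 libraries per group, 2 came from females in DNBS_GR159897 and 1 did in each of the remaining groups. No age is given, and the labels do not say in words that each library is a separate mouse, so p-values measure the spread between these libraries.

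The depth of the libraries is unknown, and between 10324 and 11156 genes per library reached 1 FPKM. Enteric glia markers were detected, with a summed level of 16.1 to 612 FPKM in DNBS libraries and 444 to 1061 FPKM in saline libraries. Gfap, blank in Saline_Vehicle, is not in these sums. The lowest of these sums belonged to DNBS_GR159897 replicate 1, which also had 1128 FPKM of epithelium markers, against at most 39.2 FPKM in any other library, and the lowest share of summed FPKM on annotated loci. That share was 22.6%, 56.4% and 64.5% in DNBS_GR159897, 75.6%, 53.8% and 84.0% in DNBS_Vehicle, 95.1%, 75.4% and 78.1% in Saline_GR159897 and 88.8%, 83.5% and 92.6% in Saline_Vehicle. Counts of calls, correlations and differences with the antagonist are also given without DNBS_GR159897 replicate 1.

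Small nucleolar RNAs guide the chemical modification of ribosomal and spliceosomal RNA: box C/D snoRNAs direct ribose methylation and box H/ACA snoRNAs direct the conversion of uridine to pseudouridine. In mammals nearly all of them are cut from introns of a host gene after splicing. Many hosts, among them Gas5 and Snhg1, encode no known functional protein in their exons, yet their spliced RNAs are bound by ribosomes and broken down by nonsense-mediated decay. Several are transcribed like ribosomal protein genes, from a start within a run of pyrimidines (a terminal oligopyrimidine, or TOP, start), which ties them to growth and translation. Mir142hg differs in kind: miR-142 is known as a microRNA of blood cells and is abundant in leukocytes. The libraries were primed on poly(A) tails, and mature microRNAs were not measured here.

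The GENCODE annotation (GRCm38), reached through the transcript identifiers of the rows, lists 30 snoRNA entries and 1 microRNA inside these loci. Gas5 holds 10 snoRNA entries, Snhg1 holds 8 and Snhg12 holds 5, Snhg3 and Snhg5 hold 2 each, and Snhg6, Snhg15 and Snhg8 hold 1 each. Only 3 of the 31 entries, Snord87 in Snhg6, Snora73b in Snhg3 and Mir142 in Mir142hg, lie clear of every annotated exon of their host, and the others overlap an exon of at least 1 isoform. The annotated exons of all isoforms together cover the whole gene for Snhg1 (2969 bases), Snhg8 (853 bases) and Snhg12 (2402 bases). For Gas5 they cover 3760 of 4118 bases. The levels of such rows cannot be read as those of spliced RNA alone. The snoRNA Snord87 has a row of its own in the table. It had 3.14, 0 and 0 FPKM in DNBS_GR159897 and 1.18, 0 and 0.79 FPKM in DNBS_Vehicle, and was listed at 0 in all 6 saline libraries, too low to pass the filter.

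The sequence around the start is shown for the snoRNA hosts because TOP starts are what these hosts are known to share with ribosomal protein genes. RefSeq (GRCm38.p6) gave promoters for 7 of the 9 listed genes, Gas5 with a pair of starts. These 7 include Snhg12 and Snhg3 and lack Snhg6 and Mir142hg, so they are not the 7 members. Each line below runs 5′ to 3′ on the gene's strand, holds 25 bases before the annotated start and 35 from it onward, and has in capitals a run of at least 5 C or T letters that opens with C within 2 bases of the annotated start.
Gas5 (chr1:161035141-161035200, plus strand, downstream start): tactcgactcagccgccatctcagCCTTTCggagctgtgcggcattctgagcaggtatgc
Snhg8 (chr3:123508302-123508361, minus strand): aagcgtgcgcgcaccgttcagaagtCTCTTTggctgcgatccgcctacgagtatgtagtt
Snhg12 (chr4:132308653-132308712, plus strand): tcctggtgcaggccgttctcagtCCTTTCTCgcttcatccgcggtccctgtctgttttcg
Snhg3 (chr4:132353652-132353711, minus strand): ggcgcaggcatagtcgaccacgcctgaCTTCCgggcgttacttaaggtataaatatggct
Snhg1 (chr19:8723462-8723521, plus strand): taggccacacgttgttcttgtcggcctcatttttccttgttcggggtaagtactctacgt
Snhg5 (chr9:88522863-88522922, minus strand): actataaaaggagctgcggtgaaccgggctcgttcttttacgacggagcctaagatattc
Snhg15 (chr11:6528726-6528785, minus strand): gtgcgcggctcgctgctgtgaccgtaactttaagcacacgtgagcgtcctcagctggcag
Such a run was present in 4 of these 7 genes (57.1%), namely Gas5, Snhg8, Snhg12 and Snhg3. Gas5 had it at the downstream start and not at the upstream start, which is not shown. The share was 10.6% of 27025 genes with a promoter in the same source and 37.7% of 53 cytosolic ribosomal protein genes. The run and the motifs below were chosen after the sequences were seen, and a run at an annotated start is a description, not a measured start site.

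Over the whole promoter window of 250 bases before the start and 50 after it, read on both strands, the letters TGACGTCA, the consensus of the cyclic AMP response element, were found in 2 of the 7 genes, against 2.03% of all promoters. The letters read the same on both strands. They lie 46 bases before the downstream start of Gas5 and 88 bases before the start of Snhg15, and are in capitals in the lines below.
Gas5 (chr1:161035105-161035142, plus strand): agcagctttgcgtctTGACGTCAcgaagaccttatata
Snhg15 (chr11:6528826-6528863, minus strand): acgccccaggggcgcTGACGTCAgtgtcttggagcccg
The E-box letters CACGTG were found in Snhg15 alone of the 7, 11 bases after the start, against 8.09% of all promoters. The TATA-box letters TATAAA were found in Snhg8, Snhg3, Snhg5 and Snhg1, against 15.7% of all promoters. They lie 30, 29 and 23 bases before the start in Snhg8, Snhg1 and Snhg5, and 22 bases after the annotated start in Snhg3.

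The product of the microRNA host is shown by its mature arms, with the seed (bases 2 to 8) in capitals. The hairpin lies at chr11:87756864-87756927 on the plus strand.
mmu-miR-142a-5p (chr11:87756867-87756887): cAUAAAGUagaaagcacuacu
mmu-miR-142a-3p (chr11:87756903-87756925): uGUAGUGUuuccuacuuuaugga
The arms have different seeds. Mir142hg (ENSMUSG00000084796) spans chr11:87755577-87757270 on the plus strand, and its row holds 1 transcript of 2 exons, 269 bases in all, with the hairpin between the exons.

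The box C/D hosts had higher mean levels in DNBS than in saline libraries, Snhg6 most and Gas5 least in relative terms. Gas5 (growth arrest specific 5, ENSMUSG00000053332, chr1:161034422-161038539, plus strand) is a host whose RNA builds up in growth-arrested cells. It had 128.5, 69.4 and 51.5 FPKM in DNBS_GR159897 and 45.2, 54.6 and 66.2 FPKM in DNBS_Vehicle, against 7.60, 42.6 and 21.1 FPKM in the Saline_GR159897 group and 25.4, 36.3 and 20.5 FPKM in Saline_Vehicle. All 6 DNBS libraries lay above all 6 saline libraries, by little at the boundary: 45.2 FPKM in the lowest DNBS library and 42.6 FPKM in the highest saline library. The mean was 69.2 ± 30.4 FPKM in DNBS and 25.6 ± 12.4 FPKM in saline libraries (SD, n = 6 each). Averaged over both drug arms, Gas5 rose by 1.48 ± 0.42 (log2 fold change of FPKM + 1 with its SE, limma, adjusted p = 0.0454).

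Snhg1 (ENSMUSG00000108414, chr19:8723475-8726443, plus strand) is the host of Snord22 and of 7 other snoRNA entries. It had 9.34, 5.43 and 7.02 FPKM in DNBS_GR159897 and 3.51, 13.3 and 6.13 FPKM in DNBS_Vehicle, against 1.25, 2.28 and 1.85 FPKM in the Saline_GR159897 group and 2.08, 2.56 and 1.34 FPKM in Saline_Vehicle. No saline library reached the lowest DNBS library, and the widest spread was within DNBS_Vehicle. The mean was 7.46 ± 3.44 FPKM in DNBS and 1.89 ± 0.52 FPKM in saline libraries (SD, n = 6 each), and the averaged change was 1.47 ± 0.30 (limma, adjusted p = 0.0151).

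Snhg5 (ENSMUSG00000097195, chr9:88521050-88522929, minus strand) carries Snord50a and Snord50b. It had 13.99, 11.02 and 14.16 FPKM in DNBS_GR159897 and 9.29, 5.75 and 14.5 FPKM in DNBS_Vehicle, against 0.37, 3.84 and 1.91 FPKM in the Saline_GR159897 group and 4.03, 8.98 and 2.51 FPKM in Saline_Vehicle. The groups were apart under the antagonist and overlapped under vehicle, where Saline_Vehicle replicate 2 lay above DNBS_Vehicle replicate 2. The averaged change was 1.63 ± 0.37 (limma, adjusted p = 0.0226).

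Snhg6 (ENSMUSG00000098234, chr1:9941959-9944118, minus strand) carries Snord87, which guides methylation of ribosomal RNA. It had 6.19, 25.5 and 17.0 FPKM in DNBS_GR159897 and 11.9, 19.4 and 21.0 FPKM in DNBS_Vehicle, against 0.72, 4.05 and 1.69 FPKM in the Saline_GR159897 group and 3.13, 4.98 and 2.49 FPKM in Saline_Vehicle. All DNBS libraries lay above all saline libraries, and the lowest DNBS value was that of DNBS_GR159897 replicate 1. The mean was 16.8 ± 6.87 FPKM in DNBS and 2.84 ± 1.55 FPKM in saline libraries (SD, n = 6 each), a ratio of means of 5.92, and the averaged change was 2.21 ± 0.38 (limma, adjusted p = 0.00775). Exons of Snhg6 share 127 bases with Mcmdc2, which runs the other way, and FPKM here carry no strand.

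Among the box H/ACA hosts, Snhg15 was higher in every DNBS library than in any saline library, and Snhg8 overlapped. Snhg15 (ENSMUSG00000085156, chr11:6525591-6528760, minus strand) carries Snora9 and is known in human cells as a short-lived RNA that responds to stress. It had 26.8, 15.9 and 17.2 FPKM in DNBS_GR159897 and 7.72, 11.9 and 24.9 FPKM in DNBS_Vehicle, against 1.31, 1.52 and 1.99 FPKM in the Saline_GR159897 group and 1.95, 4.07 and 2.35 FPKM in Saline_Vehicle. The lowest DNBS library, at 7.72 FPKM, lay above the highest saline library, at 4.07 FPKM, and the spread was narrow in Saline_GR159897. The mean was 17.4 ± 7.35 FPKM in DNBS and 2.20 ± 0.99 FPKM in saline libraries (SD, n = 6 each), a ratio of means of 7.92. The averaged change was 2.47 ± 0.31 (limma, adjusted p = 0.00192), larger than that of 99.5% of all genes tested.

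Snhg8 (ENSMUSG00000104960, chr3:123507552-123508404, minus strand) carries Snora24. It had 64.5, 11.7 and 10.2 FPKM in DNBS_GR159897 and 8.43, 5.70 and 13.99 FPKM in DNBS_Vehicle, against 1.89, 9.69 and 7.03 FPKM in the Saline_GR159897 group and 3.23, 13.97 and 2.78 FPKM in Saline_Vehicle. DNBS_GR159897 replicate 1 stood far above every other library, and the DNBS and saline libraries overlapped. The averaged change was 1.20 ± 0.53 (limma, adjusted p = 0.162), and 0.79 without that library (adjusted p = 0.285).

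The merged rows were higher on average in DNBS libraries, and neither passed the threshold. The row of Snhg12 and Snora16a had 3.56, 5.08 and 6.37 FPKM in DNBS_GR159897 and 3.59, 4.40 and 4.09 FPKM in DNBS_Vehicle, against 0.33, 2.52 and 2.09 FPKM in the Saline_GR159897 group and 0.71, 4.69 and 0.99 FPKM in Saline_Vehicle. Only Saline_Vehicle replicate 2 reached the DNBS libraries, and the averaged change was 1.09 ± 0.35 (limma, adjusted p = 0.0675). The row of Rcc1 and Snhg3 joins 13 transcripts, against 5 that the annotation gives Snhg3. Exons of Snhg3 share 705 of their 986 bases with the noncoding RNA Gm17300, which runs the other way, and FPKM carry no strand. The row thus holds Rcc1, a nuclear exchange factor for the GTPase Ran, and Snhg3 together, and may take in RNA of Gm17300. It had 6.06, 6.96 and 8.13 FPKM in DNBS_GR159897 and 12.1, 2.10 and 12.1 FPKM in DNBS_Vehicle, against 3.94, 5.39 and 2.70 FPKM in the Saline_GR159897 group and 7.86, 6.43 and 4.40 FPKM in Saline_Vehicle. The averaged change was 0.45 ± 0.37 (limma, adjusted p = 0.449), and DNBS_Vehicle replicate 2 had the lowest value of all 12 libraries.

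The microRNA host had the largest ratio of mean FPKM between DNBS and saline libraries of the 9. Mir142hg had 21.9, 9.41 and 5.61 FPKM in DNBS_GR159897 and 16.6, 5.20 and 3.25 FPKM in DNBS_Vehicle, against 0.10, 0.77 and 0.62 FPKM in the Saline_GR159897 group and 0.72, 0.61 and 0.72 FPKM in Saline_Vehicle. Its saline values lay close together in Saline_Vehicle and below 1 FPKM throughout, while its DNBS values spread widely within both groups. The mean was 10.3 ± 7.39 FPKM in DNBS and 0.59 ± 0.25 FPKM in saline libraries (SD, n = 6 each), a ratio of means of 17.5. The averaged change was 2.60 ± 0.38 (limma, adjusted p = 0.00419), and since 1 is added to each FPKM this understates the change of so low a gene.

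**Figure D1:**
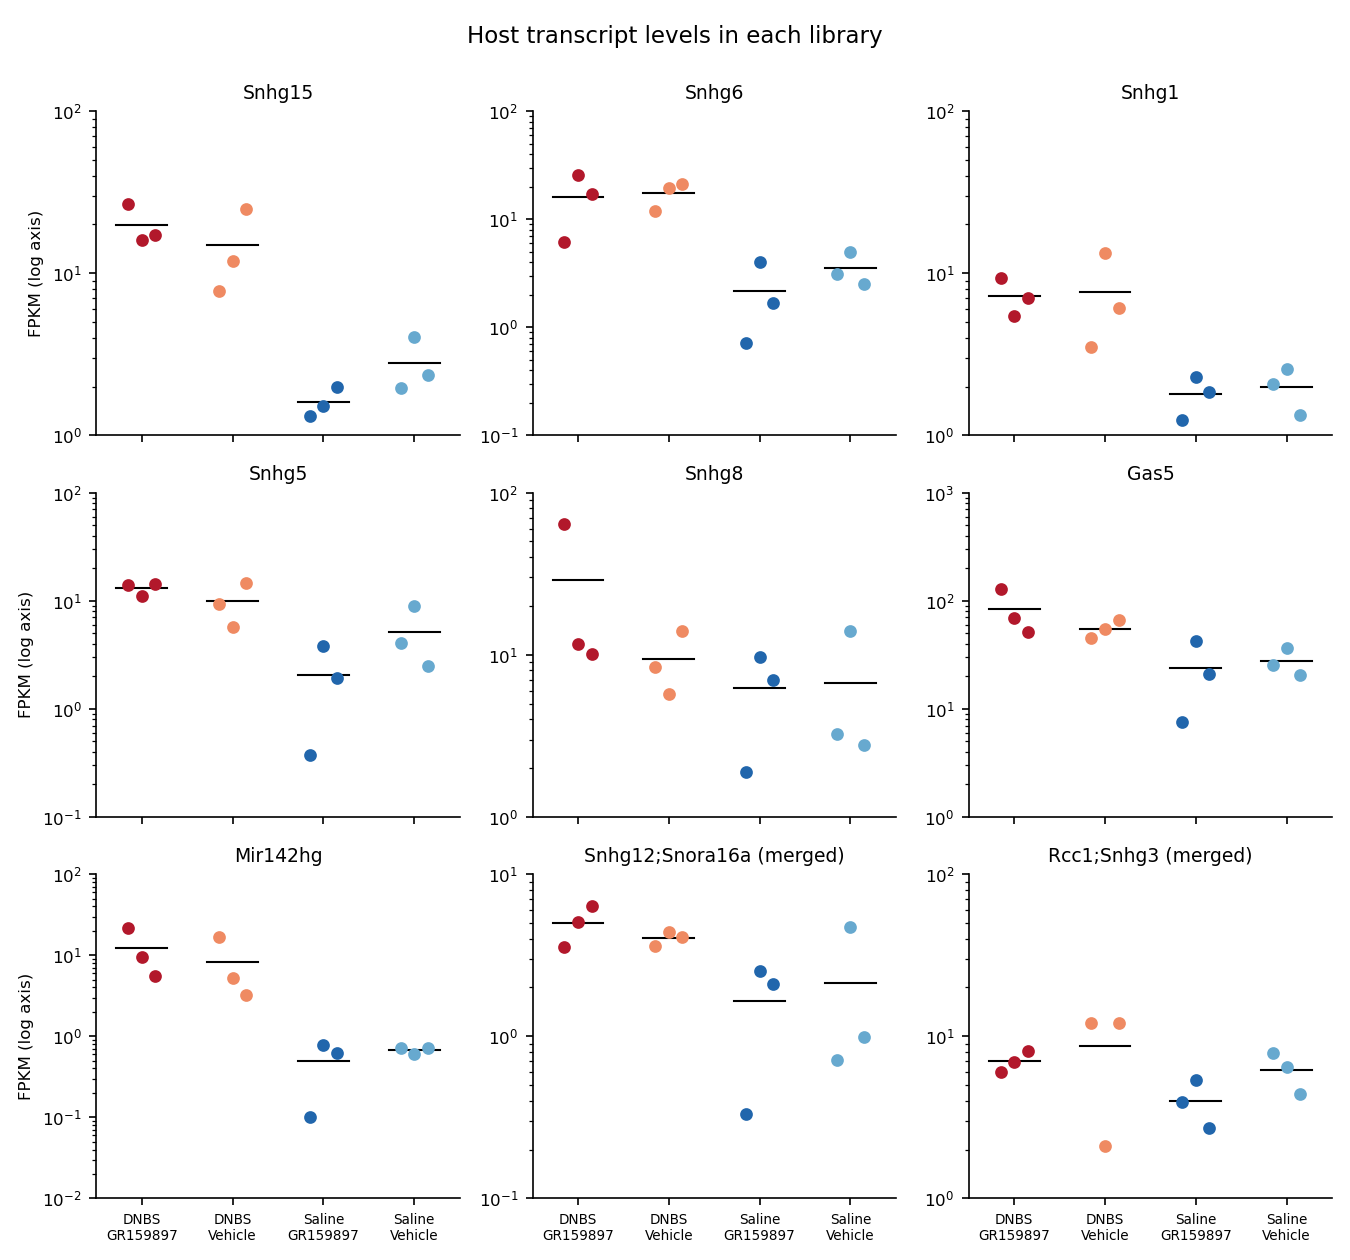
FPKM of each host transcript in each library on log axes that differ between panels, with DNBS_GR159897, DNBS_Vehicle, Saline_GR159897 and Saline_Vehicle side by side; points are libraries in replicate order and bars are group means (n = 3). The DNBS libraries lie above all saline libraries for Snhg15, Snhg6, Snhg1, Gas5 and Mir142hg, and Snhg8 has a single point at 64.5 FPKM in DNBS_GR159897.

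In order of mean level over the DNBS libraries, Gas5 (69.2 FPKM) came first, followed by Snhg8 (19.1 FPKM), Snhg15 (17.4 FPKM), Snhg6 (16.8 FPKM), Snhg5 (11.5 FPKM), Mir142hg (10.3 FPKM), the row of Rcc1 and Snhg3 (7.91 FPKM), Snhg1 (7.46 FPKM) and the row of Snhg12 and Snora16a (4.52 FPKM). Set against the larger SD of each pair of neighbours, only the step between Gas5 and Snhg8 was wider. Against the smaller SD, the step between Snhg6 and Snhg5 (SD 3.48 FPKM for Snhg5) and that between Snhg1 and the row of Snhg12 and Snora16a (SD 1.07 FPKM for the row) were wider too. In the saline libraries the order was Gas5 (25.6 FPKM), Snhg8 (6.43 FPKM), the row of Rcc1 and Snhg3 (5.12 FPKM), Snhg5 (3.61 FPKM), Snhg6 (2.84 FPKM), Snhg15 (2.20 FPKM), Snhg1 and the row of Snhg12 and Snora16a (1.89 FPKM each) and Mir142hg (0.59 FPKM). In saline the step below Gas5 was again wider than the larger SD, and all saline values of Mir142hg (at most 0.77 FPKM) lay below those of Snhg1 (at least 1.25 FPKM). Snhg15, Snhg6 and Mir142hg stood higher in the DNBS order than in the saline order.

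The averaged DNBS change passed the threshold of an adjusted p of 0.05 upward in 6 of the 7 members, all but Snhg8, against 2.76% of all genes tested upward and 6.83% downward (9.6% in either direction). Of all genes tested 353 were called higher and 873 lower, a split that moved to 514 higher of 1013 after quantile normalisation and to 407 higher of 1019 after scaling to the annotated total, with medians over all genes of 0.01 and −0.03. The median change was 1.63 over the 7 members and −0.18 over all genes. All DNBS libraries lay above all saline libraries in 5 of the 7, against 1.74% of all genes above and 4.29% below. Mir142hg is among these 5 and among the 6 past the threshold, and it passed the filter only through the DNBS libraries. The members were listed with these values in view, so the counts describe them and nothing further is read from them. Snhg15, Snhg6, Snhg1 and Mir142hg passed in each of 12 fits that left out 1 library. Snhg5 did not pass without Saline_Vehicle replicate 1 or 3 or Saline_GR159897 replicate 1, with adjusted p of up to 0.065. Among these fits Gas5 passed only without DNBS_GR159897 replicate 3 or Saline_GR159897 replicate 2, with adjusted p between 0.026 and 0.111 over the 12. Without DNBS_GR159897 replicate 1 its change was 1.296 (limma, adjusted p = 0.0536) and 5 of the 7 members passed. In that fit 1216 of 12482 genes passed in either direction, 487 of them higher.

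Under the antagonist, DNBS_GR159897 against Saline_GR159897 showed every member higher, with no overlap of the groups in 7 of 7, against 6.67% of all genes above and 17.6% below without overlap. Of the 7, 4 passed the threshold upward, against 0.384% of all genes tested upward and 0.994% downward (1.38% in either direction). They were Snhg15 at 2.98 ± 0.44 (limma, adjusted p = 0.0152), Mir142hg at 2.99 ± 0.54 (adjusted p = 0.0353), Snhg5 at 2.38 ± 0.53 (adjusted p = 0.0465) and Snhg6 at 2.40 ± 0.53 (adjusted p = 0.048). Gas5 had 1.95 ± 0.59 (adjusted p = 0.0962), Snhg8 1.74 ± 0.76 (adjusted p = 0.195) and Snhg1 1.55 ± 0.43 (adjusted p = 0.0772). The median of the 7 was 2.38 and that of all genes −0.27. Mir142hg is in both counts of this comparison, and it passed the filter only through the DNBS libraries. The number past the threshold was 0 without Saline_GR159897 replicate 1 or without replicate 3 (6 and 7 with an unadjusted p under 0.05), 1 without any 1 of the Saline_Vehicle libraries, 3 without DNBS_Vehicle replicate 2 and 2 without each of the other 6, DNBS_GR159897 replicate 1 among them (Snhg15 and Snhg6 there). Over all genes 4 and 5 passed without Saline_GR159897 replicates 1 and 3, and 45 without DNBS_GR159897 replicate 1, against 176 in the main fit.

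Without the antagonist, DNBS_Vehicle against Saline_Vehicle showed changes of the same sign and 0 members past the threshold in limma, against 0.321% of all genes in either direction, 0.235% upward and 0.0861% downward, while 4 of the 7 had an unadjusted p under 0.05. No overlap of the groups was seen in 5 of the 7, against 9.53% of all genes above and 14.9% below without overlap. Mir142hg, which passed the filter only through the DNBS libraries, is among these 5. Mir142hg had 2.20 ± 0.54 (adjusted p = 0.126), Snhg6 2.02 ± 0.53 (adjusted p = 0.15), Snhg15 1.95 ± 0.44 (adjusted p = 0.0929) and Snhg1 1.39 ± 0.43 (adjusted p = 0.209). Gas5, Snhg5 and Snhg8 had 1.01, 0.87 and 0.66 with adjusted p between 0.523 and 0.781. The median of the 7 was 1.39 and that of all genes −0.11. All libraries share 1 estimate of the spread, and without DNBS_GR159897 replicate 1, which is in neither group, 3 members passed: Snhg15 (limma, adjusted p = 0.0439), Mir142hg (adjusted p = 0.0462) and Snhg6 (adjusted p = 0.0465). In that fit 183 of 12482 genes passed in either direction, 119 of them higher, against 41 of 12777 in the main fit.

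**Figure D2:**
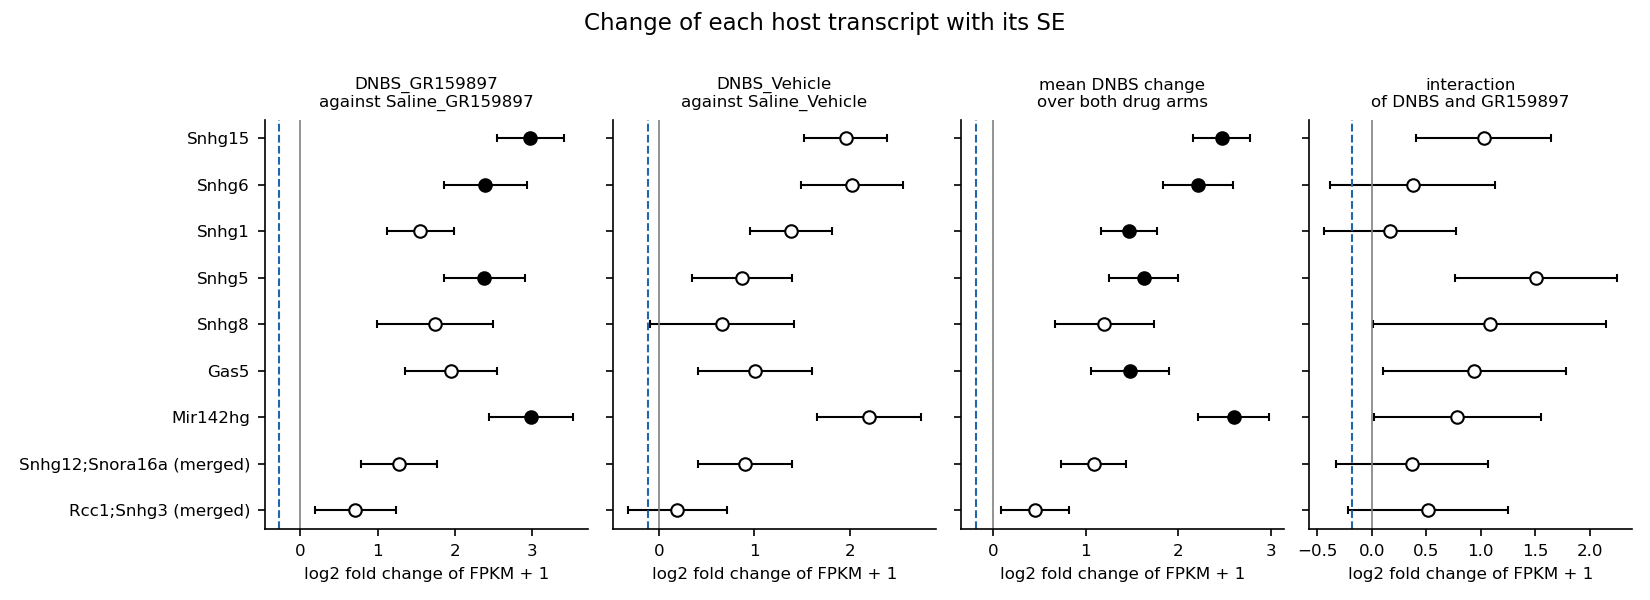
Log2 fold change of FPKM + 1 for each host transcript in 4 comparisons, with bars for the SE; filled points have an adjusted p under 0.05 (limma) and the dashed line is the median of all genes. Filled points number 4 in DNBS_GR159897 against Saline_GR159897, 0 in DNBS_Vehicle against Saline_Vehicle, 6 in the averaged change and 0 in the interaction.

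The antagonist itself was tested within each enema. In DNBS_GR159897 against DNBS_Vehicle 0 of the 7 members passed the threshold, as did 0% of all genes (limma, 0 members and 1039 genes with an unadjusted p under 0.05), and the groups overlapped for all 7, while 3.19% of all genes lay above and 6.89% below without overlap. The differences lay between −0.25 for Snhg6 and 1.099 for Snhg8. Without DNBS_GR159897 replicate 1 they lay between −0.10 for Snhg1 and 0.40 for Snhg5, with Snhg8 at 0.28, Snhg6 at 0.28, Snhg15 at 0.30, Gas5 at 0.13 and Mir142hg at 0.10, so that Snhg6 and Snhg1 had the opposite sign. In Saline_GR159897 against Saline_Vehicle 0 of 7 passed, as did 0% of all genes (limma, 0 members and 216 genes with an unadjusted p under 0.05). All 7 overlapped there too, against 3.04% of all genes above and 4.18% below without overlap, and 6 of the 7 differences were below 0, the lowest being Snhg5 at −1.06 ± 0.53, and Snhg8 was at 0.02. The signs of Snhg1, Snhg8, Gas5 and Mir142hg there turned in at least 1 fit without 1 library. The interaction, the DNBS change under the antagonist minus that under vehicle, was above 0 for all 7 members, between 0.17 for Snhg1 and 1.51 ± 0.75 for Snhg5. Without DNBS_GR159897 replicate 1 it was −0.0085 for Snhg1, 0.26 for Snhg8 (against 1.08 with it) and 0.30 for Mir142hg (against 0.79), and without DNBS_GR159897 replicate 2 it was −0.03 for Snhg6, so the sign held in every such fit only for the other 5. Of the members 0 passed (adjusted p between 0.957 and 0.979), as did 0% of all genes (limma, 0 members and 457 genes with an unadjusted p under 0.05). The DNBS changes of the drug arms, which share 1 estimate of the spread, are thus not shown to differ for any member.

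Across all groups the snoRNA hosts varied together, and within groups they did so less and not in every pair. Over the 12 libraries the Pearson correlation of log2(FPKM + 1) between pairs of the 6 hosts with rows of their own lay between 0.43 and 0.91 over 15 pairs, with a median of 0.82, and without DNBS_GR159897 replicate 1 between 0.49 and 0.95, again with a median of 0.82. With group means removed it lay between −0.03 and 0.84, with a median of 0.47, and without that library between 0.15 and 0.95, with a median of 0.55. Over all 12 libraries Gas5 had the highest within-group values, at 0.84 with Snhg8 and 0.77 with Snhg5. The lowest were −0.03 for Snhg6 with Snhg8 and 0.06 for Snhg15 with Snhg6. Mir142hg correlated with the 6 hosts at 0.66 to 0.83 over all libraries and at 0.47 to 0.85 without DNBS_GR159897 replicate 1. With group means removed it did so at −0.45 to 0.43 (median −0.05), and at −0.71 to 0.12 without that library (median −0.02). The enema, depth and RNA composition of a library are common to both genes of a pair, so these coefficients are descriptions.

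By the highest correlation over the 12 libraries, among genes past the filter with predicted genes and merged rows left out, the profile of Snhg15 was much like those of Kctd9 (r = 0.93) and Areg (r = 0.93), the growth factor amphiregulin. Areg had 20.3, 15.2 and 11.7 FPKM in DNBS_GR159897 and 12.9, 6.79 and 15.3 FPKM in DNBS_Vehicle, against 0.17, 0.65 and 0.87 FPKM in the Saline_GR159897 group and 0, 0 and 0.45 FPKM in Saline_Vehicle. Mir142hg was most like Gda (r = 0.98), a guanine deaminase, F13a1 (r = 0.95), the A chain of coagulation factor XIII found in monocytes and macrophages, and Ctss (r = 0.94), the lysosomal protease cathepsin S of antigen-presenting cells. Ctss had 23.2, 10.6 and 18.8 FPKM in DNBS_GR159897 and 24.6, 10.3 and 7.33 FPKM in DNBS_Vehicle, against 0.93, 0.85 and 0.70 FPKM in the Saline_GR159897 group and 2.78, 2.33 and 2.39 FPKM in Saline_Vehicle. The mean profile of the other 5 members, Snhg6, Snhg1, Snhg5, Snhg8 and Gas5, was most like Rps12 (r = 0.97) and Rps24 (r = 0.96), both of them proteins of the small ribosomal subunit. The lowest of the coefficients given here was 0.92 without DNBS_GR159897 replicate 1 (Areg) and 0.90 without the 2 libraries farthest from the median (F13a1).

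Ribosomal protein genes were set beside the hosts. Of 71 cytosolic ribosomal protein genes 16 rose, 0 fell and 69 were higher in the averaged DNBS change, with a median of 0.95 against −0.18 for all genes. The 5 with the smallest p were Rps28 at 1.80 ± 0.34, Rpsa at 1.71 ± 0.32, Rps12 at 2.09 ± 0.41, Rpl12 at 1.56 ± 0.32 and Rpl38 at 1.85 ± 0.39 (limma, adjusted p between 0.0113 and 0.0158). Without DNBS_GR159897 replicate 1, 39 of the 71 rose and all 71 were higher, with a median of 1.11. The count was 9 without any 1 of the DNBS_Vehicle libraries or without Saline_Vehicle replicate 2, and 7, 4, 6 and 8 without Saline_Vehicle replicates 1 and 3 and Saline_GR159897 replicates 1 and 3, and 0 with the annotated share as a term, where all 71 were higher. The 6 hosts summed to 249, 139 and 117 FPKM in DNBS_GR159897 and 86.1, 111 and 147 FPKM in DNBS_Vehicle, against 13.1, 64.0 and 35.6 FPKM in the Saline_GR159897 group and 39.9, 70.9 and 31.97 FPKM in Saline_Vehicle. Per 100 FPKM of ribosomal protein mRNA this was 3.82, 1.57 and 0.81 FPKM in DNBS_GR159897 and 0.79, 1.07 and 1.07 FPKM in DNBS_Vehicle, against 0.36, 0.95 and 0.58 FPKM in the Saline_GR159897 group and 0.72, 1.19 and 0.64 FPKM in Saline_Vehicle. The ratio of these sums overlapped between DNBS and saline libraries in both drug arms. It was highest in DNBS_GR159897 replicate 1, where the ribosomal protein sum of 6526 FPKM lay within the saline range of 3660 to 6707 FPKM. Gas5 made up the largest part of the host sum, with a mean of 69.2 of 141 FPKM in DNBS and 25.6 of 42.6 FPKM in saline libraries. Ratios of single hosts were not formed, so the overlap is that of the sum alone.

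**Figure D3:**
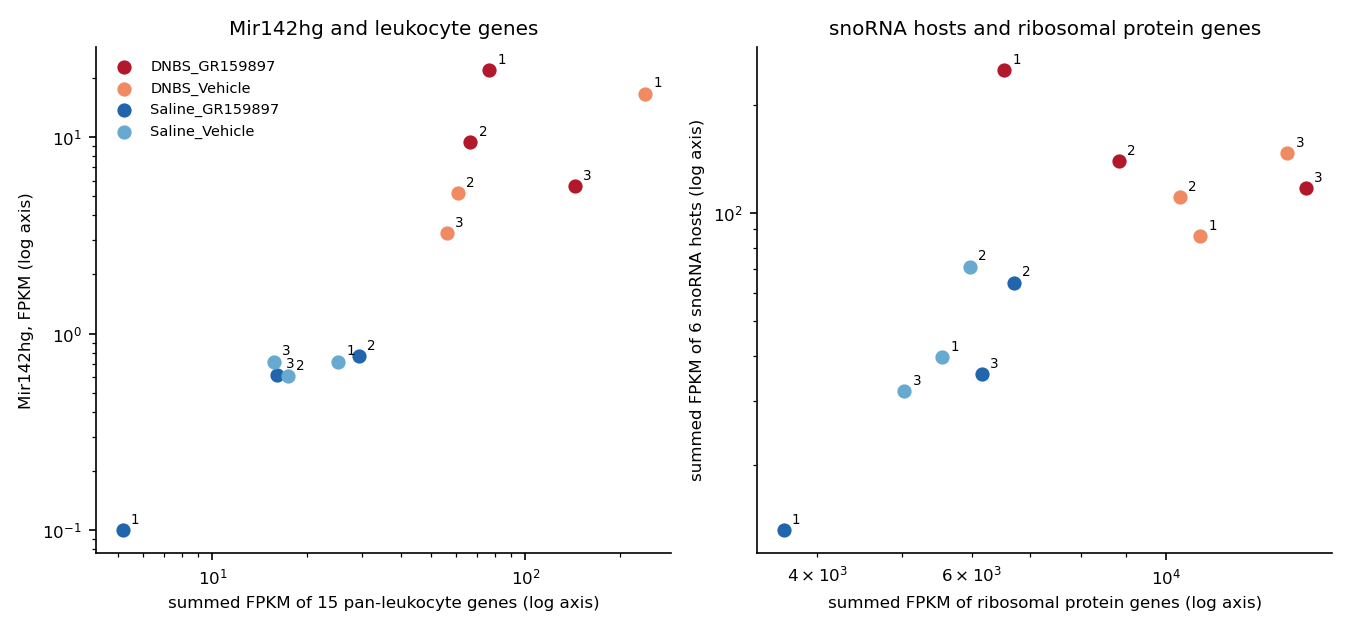
Left, Mir142hg against the summed FPKM of 15 pan-leukocyte genes; right, the summed FPKM of the 6 snoRNA hosts against that of the ribosomal protein genes, on log axes, 1 point per library labelled with its replicate number. On the left the 6 DNBS libraries lie above 50 FPKM of leukocyte genes and 3 FPKM of Mir142hg and the saline libraries lie below both; on the right DNBS_GR159897 replicate 1 has 249 FPKM of hosts at 6526 FPKM of ribosomal proteins.

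Genes of the same pathways were counted in the same way. Of 11 further noncoding snoRNA hosts past the filter 10 were higher in the averaged DNBS change and 1 rose, Zfas1, the host of Snord12 family snoRNAs, at 1.22 ± 0.34 (limma, adjusted p = 0.0421), with a median of 0.94. Without DNBS_GR159897 replicate 1, 0 of these 11 passed and 9 were higher (median 0.71), and the count lay between 0 and 2 over the 12 fits that left out 1 library. Of 47 protein-coding genes with snoRNAs in their introns, 19 of them ribosomal protein genes, 11 rose and 1 fell (median 0.58). Those with the smallest p were Rpsa, Rps12, Rpl12, the row of Rpl17 and Gm23301 (1.53 ± 0.32, adjusted p = 0.0157) and Rpl27a (1.69 ± 0.36, adjusted p = 0.0159), and the one that fell, named after its value was seen, was the row of the mitochondrial ribosomal protein gene Mrpl3 and Gm38077 (−1.098 ± 0.30, adjusted p = 0.0417). Without DNBS_GR159897 replicate 1, 18 of these 47 rose and 0 fell, and over the 12 fits the number that rose lay between 3 and 18. Of 20 translation factors with TOP starts 2 rose (median 0.42), namely Eif4b, which aids the helicase of translation initiation, at 1.90 ± 0.43 (adjusted p = 0.0213), and Rack1, a scaffold of the small ribosomal subunit, at 1.23 ± 0.29 (adjusted p = 0.0247). Of 16 proteins that bind or assemble snoRNAs 1 rose (median 0.23), Nop58, a core protein of box C/D particles and itself a snoRNA host, at 0.78 ± 0.22 (adjusted p = 0.0442). Over the 12 fits the number that rose lay between 0 and 4 for the translation factors, with 4 without DNBS_GR159897 replicate 1, and between 0 and 1 for the snoRNA proteins.

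Factors of nonsense-mediated decay, the pathway that breaks down spliced host RNAs, had a median of 0.23, and 0 of 20 passed in limma (at most 2 rose and 1 fell in any fit without 1 library). The 2 with the highest mean level, Rbm8a and Magoh of the exon junction complex, had 0.53 (adjusted p = 0.41) and −0.10 (adjusted p = 0.944). Of 5 other microRNA host rows past the filter 0 passed (median 0.54), and the 2 with the highest mean level were Meg3 at 0.65 (adjusted p = 0.451) and the row that holds Mir22hg at −0.17 (adjusted p = 0.799).

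**Figure D4:**
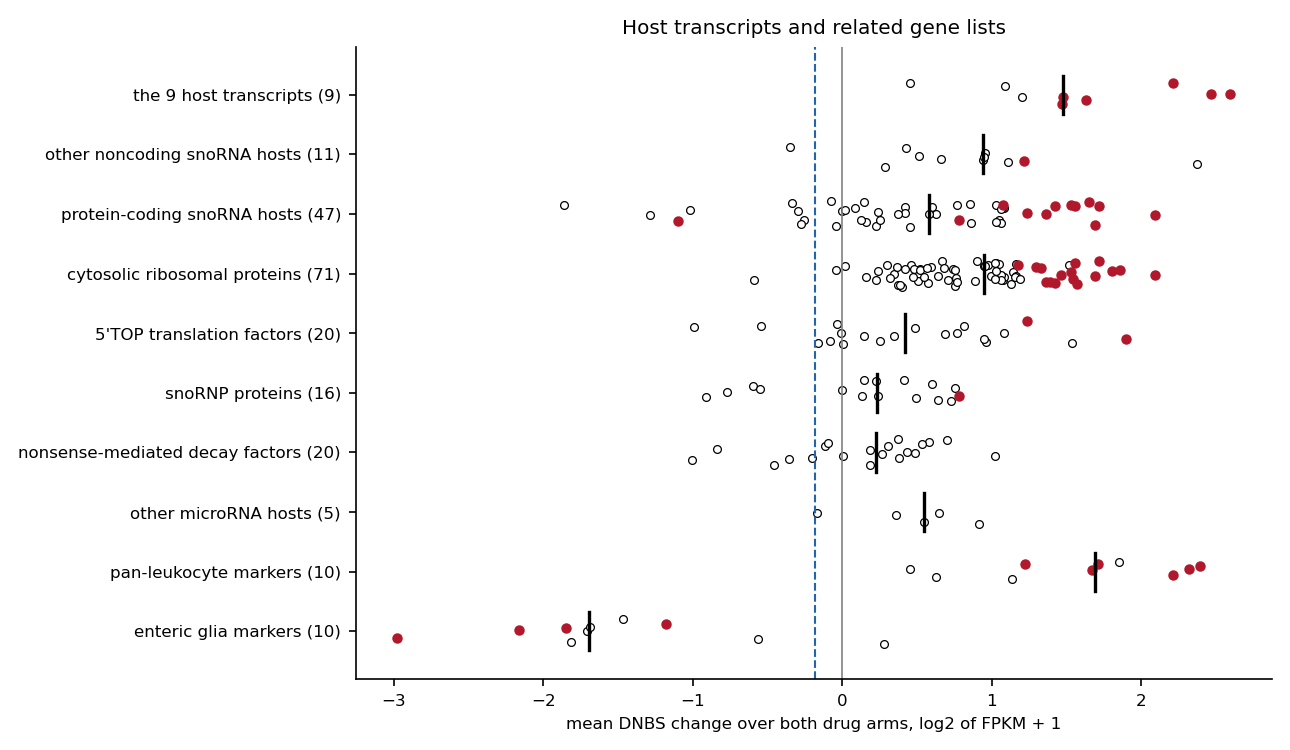
Averaged DNBS change (log2 of FPKM + 1) of each gene past the filter in 10 lists, with the number of genes in brackets; red points have an adjusted p under 0.05 (limma), open points do not, black bars are list medians and the dashed line is the median of all genes. The host transcripts have a median of 1.48 with the merged rows included, ribosomal protein genes of 0.95 and enteric glia markers of −1.70.

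Markers of some other cell types moved with the DNBS change, and in bulk samples fewer cells of a type and less RNA per cell cannot be told apart. The summed level of 15 pan-leukocyte genes was 76.4, 66.7 and 144 FPKM in DNBS_GR159897 and 241, 60.9 and 56.0 FPKM in DNBS_Vehicle, against 5.16, 29.3 and 16.1 FPKM in the Saline_GR159897 group and 25.1, 17.4 and 15.7 FPKM in Saline_Vehicle, and no marker was at 0 in every library. Ptprc, which encodes the leukocyte antigen CD45, was between 0.11 and 1.86 FPKM in DNBS libraries and between 0 and 0.22 FPKM in saline libraries. Of 10 pan-leukocyte genes past the filter 6 rose (median 1.69), led by Laptm5 at 1.67 ± 0.30 (limma, adjusted p = 0.00925), Lcp1 at 2.32 ± 0.49 (adjusted p = 0.0159), Fcer1g at 2.39 ± 0.54 (adjusted p = 0.0215), Cd53 at 1.22 ± 0.31 (adjusted p = 0.03) and Arhgdib at 1.71 ± 0.44 (adjusted p = 0.0313). Of 7 neutrophil markers 5 rose, S100a8 (4.72), S100a9 (4.77), Lcn2 (3.13), Retnlg (3.75) and Il1r2 (1.69), with limma adjusted p between 0.00589 and 0.0336. Of 11 macrophage markers 3 rose, Cd68 (1.25), Mrc1 (1.28) and C1qc (1.51), with limma adjusted p between 0.0142 and 0.0293. The summed macrophage markers overlapped, at 49.7 to 272 FPKM in DNBS and 49.9 to 118 FPKM in saline libraries. So did the summed neutrophil markers, at 27.55 to 615 FPKM in DNBS and 0.88 to 29.84 FPKM in saline libraries. Of 10 enteric glia markers 4 fell (median −1.70), among them Sox10, the gene that drives the Cre, at −2.98 ± 0.80 (limma, adjusted p = 0.0374). The other 3 were Erbb3 at −1.18 ± 0.32, Ednrb at −1.85 ± 0.52 and the row of Npdc1 and Entpd2 at −2.17 ± 0.63 (adjusted p between 0.0388 and 0.0487). Gfap, blank in Saline_Vehicle, is not among the 10. It had 0.90, 79.65 and 201 FPKM in DNBS_GR159897, 184, 289 and 236 FPKM in DNBS_Vehicle and 323, 89.8 and 152 FPKM in Saline_GR159897. Over the 12 fits without 1 library the number that rose lay between 2 and 7 for pan-leukocyte genes, 2 and 6 for neutrophil and 2 and 4 for macrophage markers, and the number that fell lay between 0 and 6 for glia markers; without DNBS_GR159897 replicate 1 these were 6, 4, 3 and 2. With the annotated share as a term 0 passed in each of these lists. Lymphocyte markers summed to 69.6 FPKM in DNBS_GR159897 replicate 1 and to at most 2.99 FPKM in each other library. In the averaged change 0 markers passed for neurons (median −0.43), smooth muscle (−0.30), interstitial cells of Cajal (−0.31) and fibroblasts (−0.13). The same was true of endothelium (0.49), epithelium (1.15) and the 1 lymphocyte marker past the filter (0.38).

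Mir142hg was also set against the leukocyte genes. Per 100 FPKM of pan-leukocyte genes it had 28.7, 14.1 and 3.91 FPKM in DNBS_GR159897 and 6.90, 8.54 and 5.80 FPKM in DNBS_Vehicle, against 1.94, 2.63 and 3.84 FPKM in the Saline_GR159897 group and 2.86, 3.51 and 4.58 FPKM in Saline_Vehicle. All DNBS_Vehicle ratios lay above all Saline_Vehicle ratios, and all DNBS_GR159897 ratios above all Saline_GR159897 ratios. The latter gap was small in DNBS_GR159897 replicate 3, which lay below Saline_Vehicle replicate 3. The saline ratios rest on Mir142hg values of 0.10 to 0.77 FPKM and leukocyte sums of 5.16 to 29.3 FPKM. They are of unknown precision, and Mir142hg passed the filter only through the DNBS libraries. The part of leukocyte RNA in the difference of Mir142hg, and that of other cell types in the differences of the snoRNA hosts, was not tested.

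The share of summed FPKM on annotated loci moved with DNBS too. With that share as a term in the model, an alternative added after the data were seen, the averaged changes were 2.29 for Snhg15 (limma, adjusted p = 0.0499), 2.49 for Snhg6 (adjusted p = 0.0735), 1.89 for Mir142hg (adjusted p = 0.125), 1.48 for Snhg5 (adjusted p = 0.25), 0.86 for Snhg1 (adjusted p = 0.316), 0.66 for Gas5 (adjusted p = 0.567) and 0.06 for Snhg8 (adjusted p = 0.977). Snhg15 alone passed in that fit, and the changes of Snhg1, Gas5 and Snhg8 were smaller by over 1.5 times than without the term. The share was at or below 84.0% in DNBS libraries and at or above 75.4% in saline libraries, and its part in these changes was not tested further.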

How the data were processed

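The authors deposited 1 table of FPKM for 99547 loci in 12 libraries. Per the labels, tagged ribosomes were pulled down, and cDNA was made from 1 ng of RNA with a SMART-seq kit. Per the submitters' processing notes, HISAT2 2.0, StringTie 1.3, cutadapt 1.10 and FastQC 0.10.1 were used. Which build the reads were aligned to was not given in the sources used here. Depth is unknown, so no counting interval can be given, and strand is not recorded.

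Of these loci 24432 hold an annotated transcript, and 75115 without one were left out of the tests, as were 38 rows with a repeated symbol and Gfap, blank in Saline_Vehicle. The 12777 genes that reached 1 FPKM in 3 or more libraries were tested with limma 3.58.1 (R 4.3.3) on log2(FPKM + 1), in 1 fit with a coefficient per group, an intensity trend, robust variances and 8 residual degrees of freedom. The tests were two-sided and p-values were adjusted by Benjamini-Hochberg over all genes, with a threshold of 0.05. The averaged DNBS change is the mean of the changes in both drug arms. Tables and plots were made with Python 3.11.15, pandas 2.3.3, numpy 2.4.6 and matplotlib 3.10.9, and the fit was checked on simulated data. No 2 libraries held identical values.

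Members and gene lists were chosen with earlier results of these data known. All members are named, then from each list up to 5 genes past the threshold by smallest p, or else the 2 with the highest mean FPKM, and the 3 genes most correlated with a profile, of which some are not reported here. Loci came from GENCODE (GRCm38) through transcript identifiers, and sequences from RefSeq (GRCm38.p6).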

Additional observations from a re-analysis of the deposited data

Results flagged for a closer look

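Rows that carry a member's name but hold no annotated transcript were outside the comparisons, and 4 of their values exceeded those of all Saline_Vehicle libraries. The row named Snhg15 had 4.11 FPKM in DNBS_GR159897 replicate 1, against 0.49 FPKM in Saline_Vehicle replicate 3 and 0 in each other library. The row named Snhg1 had 3.5 FPKM in DNBS_GR159897 replicate 1 and was listed at 0 in each other library. The row named Snhg5 had 2.87 and 4.2 FPKM in DNBS_GR159897 replicates 1 and 2 and was listed at 0 in each other library.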

How the results depend on the processing

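Of 7 members, 6 passed in the averaged DNBS change, 4 in DNBS_GR159897 against Saline_GR159897 and 0 in DNBS_Vehicle against Saline_Vehicle. Mir142hg, which passed the filter only through the DNBS libraries, is among the 6 and the 4. With the annotated share as a term, chosen after the data were seen, the first count was 1 and the second 0. The first was also 4 with no filter on low values, where Gas5 and Snhg5 did not pass, and 5 with a pseudocount of 0.1 or a sex term. The second was 6 with library weights, 2 with a pseudocount of 0.1, 1 with no filter, 1 with a sex term and 0 with only the groups compared. The third was 3 with library weights and 1 with only the groups compared (limma). Fits without 1 library gave 4 to 6, 0 to 3 and 0 to 3, with 402 to 1643, 4 to 601 and 0 to 183 calls over all genes. With the replicate block the second count was 1 and the first 5. Deviations of libraries of the same number from their group means had mean correlations of −0.03, 0.05 and 0.02. The highest value of a single pair was 0.20. Whether the number marks a pairing or a batch cannot be told from these values. Over all genes the averaged change had 68 calls with the annotated share as a term and 3009 with library weights, against 1226. It had 442 with no filter, 879 with a pseudocount of 0.1, 805 with a sex term and 986 with the block. DNBS_GR159897 against Saline_GR159897 had 176 in the main fit, 2158 with library weights and 1 with the annotated share as a term. It had 42 with a pseudocount of 0.1, 31 with the block, 25 with a sex term, 18 with no filter and 10 with only the groups compared. DNBS_Vehicle against Saline_Vehicle had 41, 514 with library weights and 143 with only the groups compared.

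No transcript changed direction in the averaged DNBS change or in DNBS_GR159897 against Saline_GR159897, over the alternatives run. Of the other recomputed changes of single transcripts 40 took the opposite sign, 17 of them in DNBS_GR159897 against DNBS_Vehicle, 12 in Saline_GR159897 against Saline_Vehicle, 7 in the interaction and 4 in DNBS_Vehicle against Saline_Vehicle. The cause was not tested.

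With the annotated share as a term, DNBS_GR159897 against DNBS_Vehicle turned to −0.042 for Mir142hg, −0.24 for Gas5, −0.47 for Snhg1 and 0.53 for the row of Rcc1 and Snhg3. In the same fit Snhg8 turned to −0.088 in DNBS_Vehicle against Saline_Vehicle and to −0.22 in Saline_GR159897 against Saline_Vehicle, and Snhg1 to −0.25 in the interaction. Snhg6 in DNBS_GR159897 against DNBS_Vehicle turned to 0.58 with library weights, 0.20 after scaling to the annotated total and 0.11 after quantile normalisation. The row of Rcc1 and Snhg3 turned there to 0.43 after that scaling, 0.27 after quantile normalisation, 0.043 with a pseudocount of 0.1 and 0.019 with a sex term. The row of Snhg12 and Snora16a turned to 0.083 with library weights in Saline_GR159897 against Saline_Vehicle.

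Fits without 1 library spanned 0 as follows. In DNBS_GR159897 against DNBS_Vehicle the range was −0.66 to 0.28 for Snhg6, −0.32 to 0.52 for Snhg1 and −0.71 to 0.33 for the row of Rcc1 and Snhg3. In Saline_GR159897 against Saline_Vehicle it was −0.26 to 0.052 for Snhg1, −0.37 to 0.65 for Snhg8, −1.004 to 0.17 for Gas5, −0.33 to 0.0092 for Mir142hg and −0.47 to 0.40 for the row of Snhg12 and Snora16a. In the interaction it was −0.032 to 0.91 for Snhg6, −0.22 to 0.61 for Snhg1, −0.17 to 0.87 for the row of Rcc1 and Snhg3 and −0.17 to 0.70 for the row of Snhg12 and Snora16a. In DNBS_Vehicle against Saline_Vehicle it was −0.15 to 0.89 for the row of Rcc1 and Snhg3.

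Only the groups compared could not be applied to the averaged change or the interaction. Depth is unknown, and values below 1 FPKM, as for Mir142hg in saline libraries, are of unknown precision.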
